A study of Mus musculus with 6 samples.

Results

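The synaptotagmin probe sets are the 28 probe sets, of 45037 tested, that the array's annotation gives to exactly 1 of 10 mouse genes: Syt1, Syt2, Syt4, Syt5, Syt6, Syt7, Syt9, Syt11, Syt13 and Syt17. A probe set is the group of short probes that reads 1 transcript, and its value is a log2 signal. RNA of 6 samples of cultured mouse NSP cells, most likely neural stem and progenitor cells although the labels do not spell the name out, was read on 1-colour Affymetrix arrays. These cells had been taken from brain at E12.5, an embryonic day, expanded on coated plates and then exposed to lentivirus overnight. The virus carried a control shRNA, called CTL, in 3 samples and an shRNA against REST in the other 3; an shRNA is a hairpin that directs destruction of a matching transcript. Every sample was therefore infected, and RNA was collected 6 days later from all. No strain and no promoter driving the hairpin is named. Nothing in the labels ties the samples of a group to separate embryos, so the p-values below measure the spread between samples, which may be technical. Per gene the family had from 1 probe set (Syt5 and Syt9) to 5 (Syt11).

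Synaptotagmins are membrane proteins of vesicles and of the plasma membrane with a pair of C2 domains, which in several members bind calcium and phospholipid. Syt1, Syt2 and Syt9 are the calcium sensors of fast transmitter release, and Syt7 is a sensor of higher calcium affinity used in slow release and vesicle replenishment. Syt4, Syt11, Syt13 and Syt17 bind calcium weakly or not at all and act in other steps of vesicle traffic. REST represses neuronal genes outside neurons through a DNA element named RE1, and synaptic vesicle genes are among its known targets. The question put to the arrays was how synaptotagmin transcripts stand when REST is depleted.

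Rest itself, the transcript the hairpin targets, read lower where it was targeted. Its brightest probe set read 8.92, 8.75 and 8.90 in control arrays 1, 2 and 3 and 8.63, 7.70 and 8.20 in REST shRNA arrays 1, 2 and 3. The groups did not overlap for any of the 4 probe sets of Rest, which stood at 57.3%, 62.5%, 66.8% and 71.5% of control. Each gave an exact two-sided permutation p of 0.1, which is as low as this test can go with 3 arrays against 3. The NSP label was set against marker genes and a background reference of 3.24, the signal of the brightest bacterial control probe set. On average 10 of 10 progenitor, 12 of 12 neuron, 7 of 7 astrocyte and 6 of 7 oligodendrocyte lineage markers exceeded it. Of the microglia markers 3 of 6 did (not Aif1, Itgam and C1qa), of the endothelial and mural markers 3 of 6 (not Pecam1, Cdh5 and Tek), and of the fibroblast markers 3 of 5 (not Col3a1 and Lum). The summed linear signal of the progenitor markers was 21199 to 22698 in control and 18088 to 21180 in REST shRNA arrays. The REST shRNA arrays were lower, with the groups only narrowly apart. A linear sum weighs bright markers most. The brightest here, Fabp7, differed by -0.40 ± 0.24 (SE), and its groups overlapped. Taken singly, 8 progenitor markers had a lower and 2 a higher mean in REST shRNA. The groups did not overlap for 1 of them, Sox2, on the lower side, as for 2.65% of all genes. The summed signal of the neuron markers was 4625 to 5377 in control and 5607 to 8022 in REST shRNA arrays, higher without overlap. Taken singly, 9 neuron markers had a higher and 3 a lower mean in REST shRNA (Map2, Dcx and Elavl4). The groups did not overlap for 5 of the 12, on the higher side, against 4.91% of all genes. The summed signal of the astrocyte markers was 9159 to 11347 in control. In REST shRNA arrays it was 3628 for array 2 against 12758 and 11900 for arrays 1 and 3. The mean log2 difference of the 7 astrocyte markers was 0.0069, -1.70 and 0.15 in numbers 1, 2 and 3. Averaged over the numbers all 7 were lower in REST shRNA, and Slc1a2 was lower in each (-0.54, -1.02 and -0.53). The summed signal of the oligodendrocyte lineage markers was 7743 to 9299 in control, and 6820 for REST shRNA array 2 against 9659 and 11367 for arrays 1 and 3. Microglia markers, at 52.5 to 56.1 in control and 57.4 to 66.2 in REST shRNA arrays, were low but also did not overlap as a sum. By gene, the groups did not overlap for 1 of the 6, Aif1, on the higher side, against 4.91% of all genes. Aif1, with a mean below the reference, differed by 1.02. The differences of the others were 0.24 (Cx3cr1), 0.21 (C1qa), 0.05 (Csf1r), 0.02 (Itgam) and -0.07 (Tyrobp).

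No synaptotagmin probe set passed the threshold. With limma and Benjamini-Hochberg adjustment over all 45037 probe sets, 0 of 28 were called at an adjusted p under 0.05, where 0.00% of all probe sets were called (the smallest adjusted p was 0.922 over all probe sets, and 1.00 over these 28). At an unadjusted limma p under 0.05, 3 of 28 were higher in REST shRNA, 10.7% against 1.54% of all probe sets, and 2 were lower, 7.14% against 1.93%. The 3 higher ones were both probe sets of Syt4 and the brightest of Syt6, and the 2 lower ones were both probe sets of Syt17, so these 5 probe sets stand for 3 genes. Blocking on the replicate number, the counts were 4 higher and 1 lower, against 1.87% and 2.42% of all probe sets: a Syt7 probe set joined the higher ones and 1 of the Syt17 probe sets dropped out. The groups did not overlap for 1 probe set that was higher (3.57%, against 4.35% of all) and 2 that were lower (7.14%, against 3.90% of all).

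**Figure D1:**
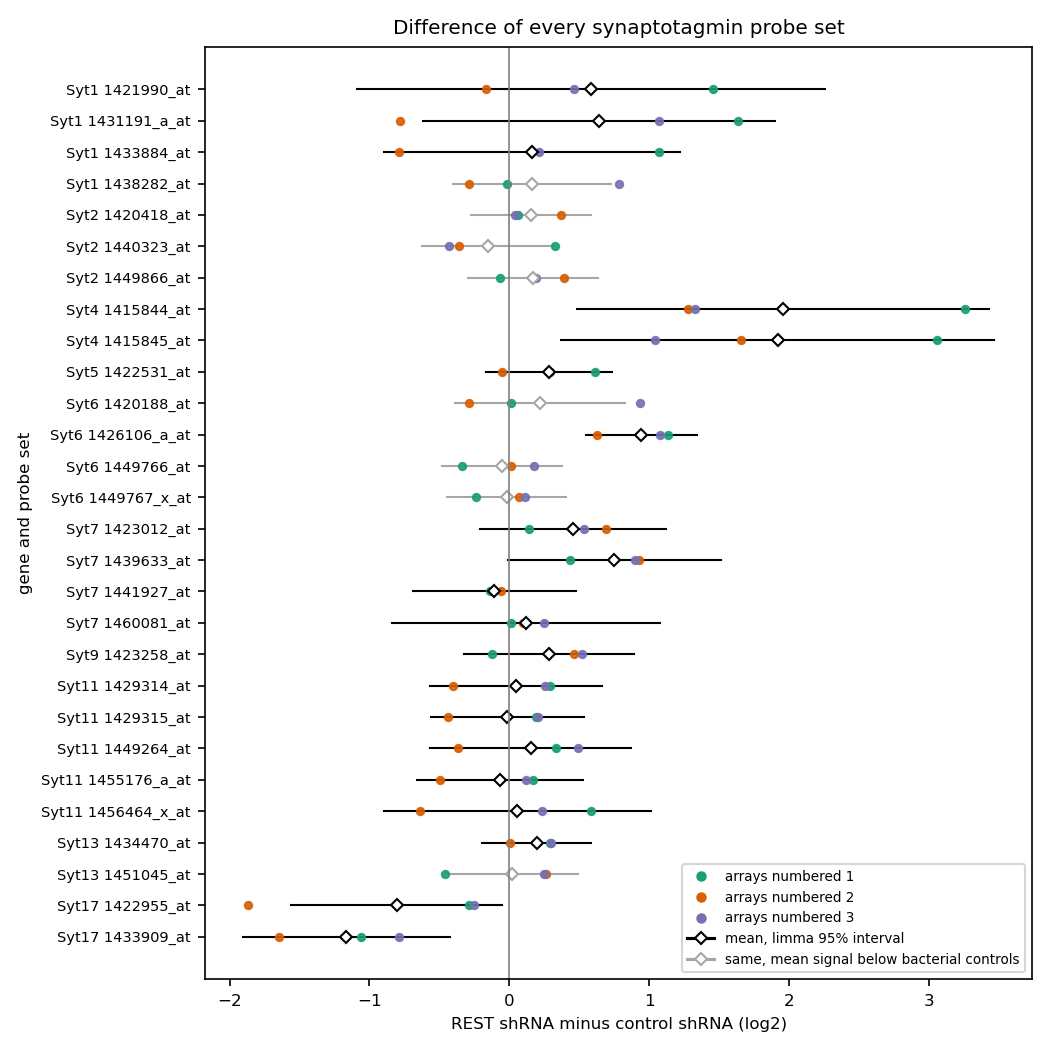
Difference between REST shRNA and control shRNA (x axis, log2) for each of the 28 synaptotagmin probe sets (y axis): the diamond is the mean with its limma 95% interval, the coloured points are the differences within replicate numbers 1, 2 and 3, and grey marks the 8 probe sets with a mean at or below the bacterial controls. The intervals of both Syt4 probe sets and of the brightest Syt6 probe set lie above 0, and those of both Syt17 probe sets lie below 0.

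Syt4, a synaptotagmin of dense core and other secretory vesicles whose gene also responds to neuronal activity, showed the highest difference of the family. Its brighter probe set, 1415845_at, read 3.87, 4.40 and 6.32 in control arrays 1, 2 and 3 and 6.93, 6.05 and 7.37 in REST shRNA arrays 1, 2 and 3. Each REST shRNA array was above the control array of its number, but control array 3 lay above REST shRNA array 2, so the groups overlapped. The means were 4.86 ± 1.29 (SD, n = 3) and 6.78 ± 0.67 (SD, n = 3), a log2 difference of 1.92 ± 0.65 (SE) or 3.78-fold (95% CI 1.29 to 11.1). The unadjusted limma p was 0.0222; blocking on the replicate number gave 0.00260, and the adjusted p was 1.00 in both fits. Leaving out single arrays or both arrays of a number moved the unadjusted limma p between 0.000846, without control array 3, and 0.152, without both arrays numbered 1.

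The dimmer Syt4 probe set, 1415844_at, gave the same order of arrays within both groups. It read 1.28, 2.29 and 3.64 in control and 4.55, 3.57 and 4.96 in REST shRNA, so that control arrays 1 and 2 lay below the bacterial reference and every REST shRNA array above it. The differences within numbers 1, 2 and 3 were 3.06, 1.65 and 1.04 for the brighter probe set and 3.26, 1.28 and 1.33 for the dimmer. Number 1 thus showed the widest gap, with the lowest control value of the 3, and without both arrays of that number the differences were 1.35 and 1.30. The neuron, progenitor and microglia marker sums given above also did not overlap between the groups, those of the progenitors only narrowly. Such linear sums weigh bright markers most. By gene, the groups stood apart for 5 of 12 neuron and 1 of 6 microglia markers on the higher side (4.91% of all genes). On the lower side they did so for 1 of 10 progenitor markers (2.65% of all genes). The part of these markers in the Syt4 difference was not tested. In such bulk RNA, a change in the number of cells of a type and a change in RNA per cell cannot be told apart.

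Syt6, known from the acrosome reaction of sperm and also made in brain, was the gene whose groups stood apart on the higher side. Its brightest probe set, 1426106_a_at, read 4.75, 5.03 and 4.92 in control arrays and 5.88, 5.66 and 5.99 in REST shRNA arrays. Every REST shRNA array was above every control array, and the spread within a group was small, at 4.90 ± 0.14 (SD, n = 3) and 5.84 ± 0.17 (SD, n = 3). The log2 difference was 0.95 ± 0.17 (SE), 1.93-fold (95% CI 1.46 to 2.53). The unadjusted limma p of 0.000801 was the lowest of the 28, and the adjusted p was 1.00. Leaving out single arrays or both arrays of a number left the difference between 0.85 and 1.11. The other 3 Syt6 probe sets had no array above the bacterial reference, with differences of 0.22, -0.05 and -0.02, so the Syt6 result rests on a single probe set.

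The Syt6 promoter window is printed to show what the sequence holds near the start of the gene that stood highest by p. RefSeq promoter windows of the GRCm38.p6 build, reaching from 250 bases before to 50 bases after a start site, were matched for 5 of the 10 genes (Syt1, Syt2, Syt6, Syt9 and Syt11, 9 windows). Promoters of Syt4, Syt5, Syt7, Syt13 and Syt17 were not analysed here. The windows were searched on both strands for letters of the RE1 element: its left part CAGCACC, its right part GGACAG, and a joined core GCACCNNGGACAG that contains the right part. The Syt6 window at chr3:103574995-103575294 (plus strand, 61% G and C) holds the right part, in capitals, 122 to 117 bases before the start site.
Syt6: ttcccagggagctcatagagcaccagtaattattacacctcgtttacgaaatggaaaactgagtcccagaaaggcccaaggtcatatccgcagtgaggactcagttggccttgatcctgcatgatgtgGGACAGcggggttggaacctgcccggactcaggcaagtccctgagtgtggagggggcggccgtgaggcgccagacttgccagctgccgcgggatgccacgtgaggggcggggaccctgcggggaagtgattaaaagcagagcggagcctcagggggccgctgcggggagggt

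Among all 32851 windows of the same length, 22.2% hold the right part, 7.14% the left part and 0.0944% the joined core. Of the 9 synaptotagmin windows, 7 hold the right part, 0 the left part and 1 the joined core. The 7 belong to 4 of the 5 genes (not Syt9), and 3 of them are Syt6 windows, 2 of which overlap and share a single match. The joined core lies in a window of Syt2, a sensor of fast release used at many inhibitory and brainstem synapses. That window is at chr1:134646362-134646661 (plus strand, 74.3% G and C), with the core in capitals 120 to 108 bases before the start site.
Syt2: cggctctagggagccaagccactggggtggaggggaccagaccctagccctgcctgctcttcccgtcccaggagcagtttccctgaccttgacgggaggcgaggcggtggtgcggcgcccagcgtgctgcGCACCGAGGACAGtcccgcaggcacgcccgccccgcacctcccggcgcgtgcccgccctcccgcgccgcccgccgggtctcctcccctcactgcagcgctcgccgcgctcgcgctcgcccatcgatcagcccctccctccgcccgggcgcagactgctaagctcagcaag
A match describes letters and is no evidence of binding. None of the 3 Syt2 probe sets had a mean above the bacterial reference. The brightest, 1440323_at, read 2.89, 3.29 and 3.47 in control and 3.22, 2.92 and 3.04 in REST shRNA arrays, values that overlapped and straddled the reference. The Syt2 differences were -0.15, 0.16 and 0.17, each smaller than its standard error.

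Syt17, a synaptotagmin relative that lacks a membrane-spanning segment and is attached to membranes by lipid, was the gene that stood lower. Its brighter probe set, 1433909_at, read 5.40, 5.01 and 4.57 in control arrays and 4.33, 3.37 and 3.77 in REST shRNA arrays. Every REST shRNA array was below every control array, and the log2 difference was -1.17 ± 0.31 (SE), a level 2.24-fold lower. The unadjusted limma p was 0.00742, and 0.00215 with the replicate block, with adjusted p = 1.00 in each. The second probe set, 1422955_at, read 4.13, 4.99 and 4.09 in control arrays and 3.84, 3.13 and 3.84 in REST shRNA arrays, again without overlap. In this probe set REST shRNA array 2 lay below the bacterial reference of 3.24. The probe set's difference of -0.80 ± 0.32 lay mainly in number 2, at -1.87 against -0.29 and -0.25 in numbers 1 and 3. Its unadjusted limma p was 0.0400, 0.0637 with the replicate block, and 0.204 without both arrays numbered 2, where the difference was -0.27. For the brighter probe set that setting gave -0.93 (unadjusted p = 0.0511 with limma across all probe sets), and its differences in numbers 1, 2 and 3 were -1.06, -1.64 and -0.79. REST shRNA array 2 had the lowest value of the 6 in both probe sets, and it also had the low astrocyte and oligodendrocyte lineage sums given above; the part of those markers in the Syt17 difference was not tested.

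**Figure D2:**
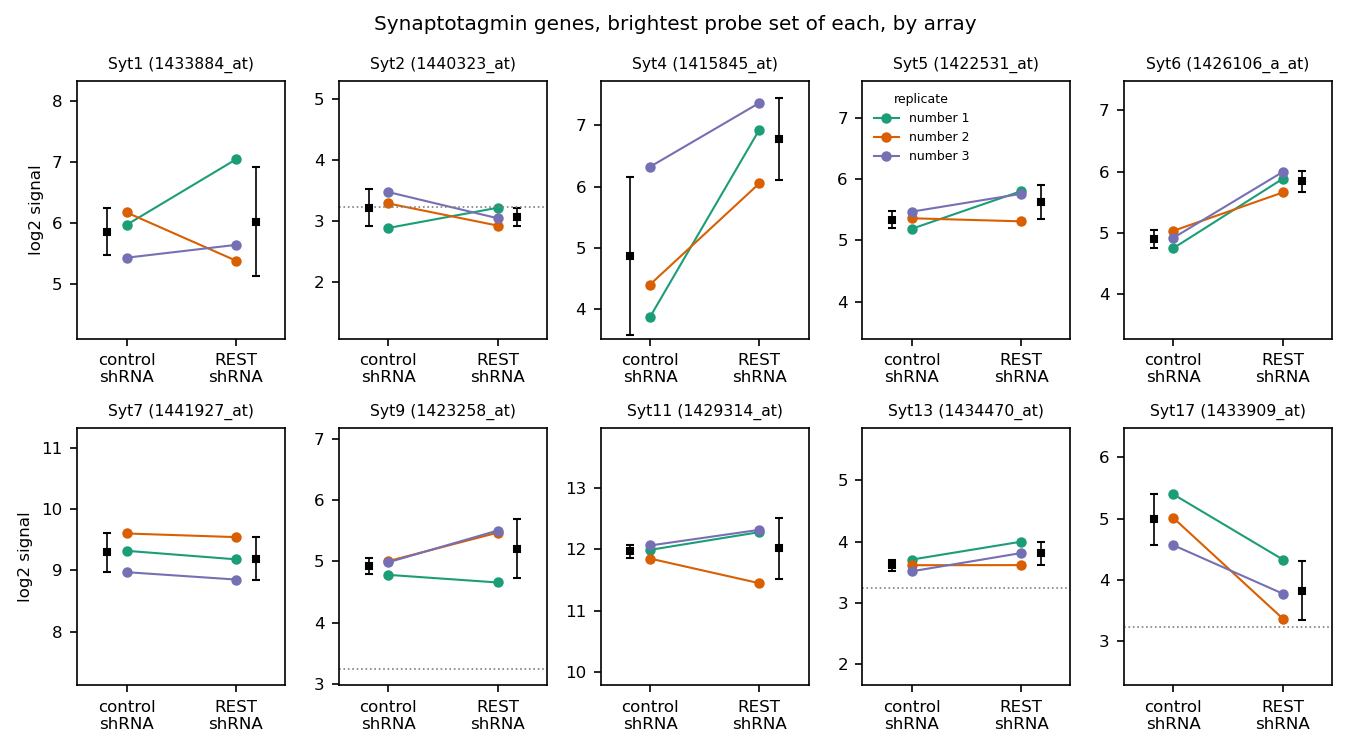
Log2 signal (y axis) of the brightest probe set of each of the 10 synaptotagmin genes in the control and REST shRNA arrays (x axis); lines join arrays of the same replicate number, squares and bars are group means and SD (n = 3), all panels span an equal range, and the dotted line is the highest bacterial control signal. The groups stand apart for Syt6 (higher) and Syt17 (lower), all 3 lines of Syt4 slope upward, and the arrays numbered 2 slope downward for Syt1 and Syt11.

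Among the sensors of fast release, Syt1 had no shared direction. Its brightest probe set, 1433884_at, read 5.97, 6.17 and 5.43 in control and 7.04, 5.39 and 5.64 in REST shRNA arrays. REST shRNA array 1 was the highest of the 6 and REST shRNA array 2 the lowest, with differences of 1.07, -0.79 and 0.21 in numbers 1, 2 and 3. The difference was 0.16 (95% CI -0.90 to 1.22), an interval that spans both directions widely. Probe sets 1421990_at and 1431191_a_at gave 0.58 ± 0.71 (SE) and 0.64 ± 0.53, with number 2 again below 0 (-0.16 and -0.78), while 1438282_at had a mean below the bacterial reference. Syt9, the other fast sensor above background, read 4.78, 5.004 and 4.99 in control and 4.66, 5.47 and 5.50 in REST shRNA arrays. Its REST shRNA arrays 2 and 3 were above all control arrays and array 1 below them, and its difference was 0.29 ± 0.26 (SE). Syt5, a synaptotagmin of neuronal and endocrine vesicles, read 5.19, 5.36 and 5.47 in control and 5.80, 5.31 and 5.76 in REST shRNA arrays, a difference of 0.29 ± 0.19.

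The 4 probe sets of Syt7 gave differences from -0.11 to 0.75. Probe set 1439633_at read 4.205, 4.77 and 4.05 in control and 4.64, 5.70 and 4.94 in REST shRNA arrays, higher in every number with a difference of 0.75 ± 0.32 (SE). Its unadjusted limma p was 0.0525, and 0.00869 with the replicate block. Probe set 1423012_at, close to the reference, was also higher in every number, at 0.46 ± 0.28. The brightest probe set, 1441927_at, read 9.32, 9.60 and 8.97 in control and 9.18, 9.54 and 8.85 in REST shRNA arrays, slightly lower in every number (-0.11 ± 0.25). Probe set 1460081_at differed by 0.12 ± 0.40, and was higher in every number too, by 0.01, 0.10 and 0.25. For 1441927_at, arrays of a number stood closer to each other than to the rest of their group.

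Differences between probe sets of a gene were also read within arrays, a comparison chosen after seeing these values. The signal of 1439633_at minus that of 1441927_at was -5.11, -4.83 and -4.92 in control and -4.54, -3.84 and -3.91 in REST shRNA arrays, a shift of 0.86. Over all 21 pairs of probe sets within Syt1, Syt4, Syt7, Syt11 and Syt17 the smallest adjusted exact permutation p was 0.35. With 3 arrays against 3 the unadjusted p of this test cannot go below 0.1, a value that 6 of the 21 pairs had. An adjusted p under 0.05 was therefore out of reach. The test cannot decide whether the Syt7 probe sets differ in their response.

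**Figure D3:**
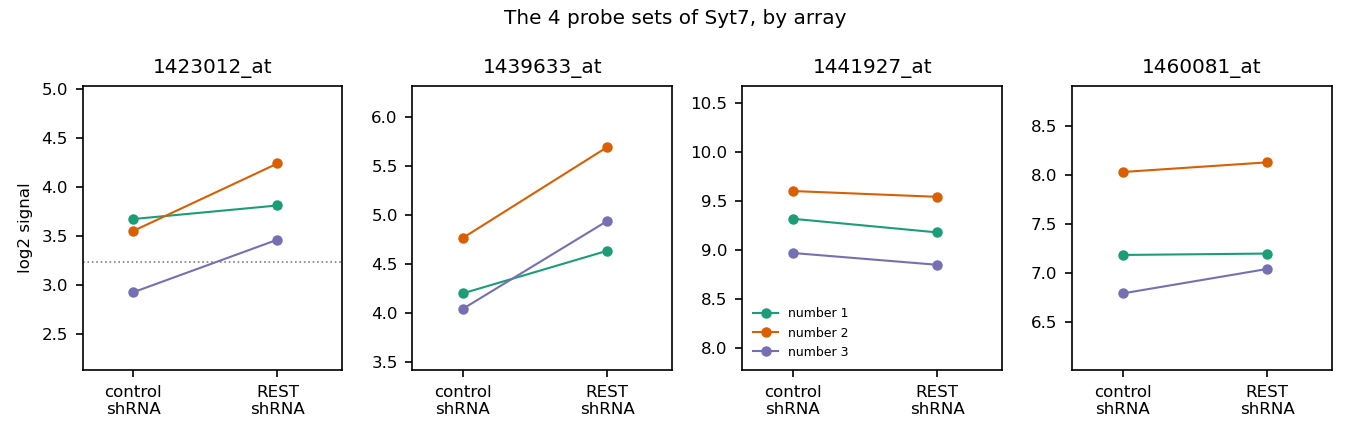
Log2 signal (y axis) of the 4 Syt7 probe sets in control and REST shRNA arrays (x axis), all panels spanning an equal range, with lines joining arrays of the same replicate number and the dotted line at the highest bacterial control signal. The REST shRNA point lies above its control point in all 3 numbers for 1423012_at, 1439633_at and 1460081_at, and below it in all 3 for 1441927_at.

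Syt11, a calcium-independent relative of Syt4 that acts in vesicle and membrane recycling, was measured by 5 probe sets, with differences from -0.07 to 0.15. The brightest, 1429314_at, read 11.99, 11.85 and 12.06 in control and 12.28, 11.45 and 12.32 in REST shRNA arrays. REST shRNA array 2 was below all control arrays and the other 2 above them, a pattern that all 5 probe sets share. Within numbers 1, 2 and 3 the differences were 0.29, -0.40 and 0.26. Without REST shRNA array 2 the difference was 0.33, against 0.05 with it. The astrocyte and oligodendrocyte lineage sums of that array were also the lowest of the 6, as given above, and their part in the Syt11 pattern was not tested.

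Syt13, a synaptotagmin that does not bind calcium, had a probe set near the reference, 1434470_at, at 3.71, 3.61 and 3.51 in control and 3.998, 3.62 and 3.81 in REST shRNA arrays. Its groups overlapped at 3.62 and 3.71, and the difference was 0.20 ± 0.16 (SE). The other Syt13 probe set was below the reference in all 6 arrays.

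Across the family, 8 of 28 probe sets were higher in REST shRNA in every number, 28.6% against 12.2% of all probe sets, and 3 were lower in every number, 10.7% against 11.0%. The 8 belong to Syt2 (1), Syt4 (2), Syt6 (1), Syt7 (3) and Syt13 (1), and probe sets of a gene are not independent. The Syt2 probe set had no array above the bacterial reference. Some of the differences were close to 0, at 0.0017 for Syt13 1434470_at in number 2 and 0.014 for Syt7 1460081_at in number 1. Number 2 differed from the others in its count: 13 of 28 were higher in it, against 19 in number 1 and 24 in number 3. Shares over all probe sets are not given for single numbers. All 5 Syt11 probe sets were among those lower in number 2. Over the brightest probe set of each of the 10 genes, 7 differences were positive and 3 negative (57.2% of all genes were positive), with a median of 0.18 against 0.04 over all 18193 genes. Without REST shRNA array 1 the family median was 0.0090, and 0.024 without both arrays numbered 1, while leaving out REST shRNA array 2 gave 0.31 and leaving out the arrays numbered 2 gave 0.28. With control array 3 left out it was 0.12. Within single numbers the median was 0.31, -0.05 and 0.27 for 1, 2 and 3, where all genes gave 0.01, -0.01 and 0.11.

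The partners of synaptotagmins in membrane fusion, the SNARE proteins and their regulators, were read from a list of 30 measured genes. Of these 0 were called at the adjusted threshold with limma (0.00% of genes). At the unadjusted threshold 4 were higher, namely Snap25, Cplx1, Cplx2 and Unc13a, and 0 lower, where 1.69% of all genes were higher and 1.04% lower. Snap25, the SNARE that Syt1 binds, read 7.37, 7.22 and 8.03 in control and 9.25, 9.02 and 9.09 in REST shRNA arrays, a difference of 1.58 ± 0.24 (SE). Its REST shRNA arrays were all above its control arrays, which was not so for Syt1. Cplx1, the complexin that clamps SNAREs until calcium binds synaptotagmin, differed by 1.22 ± 0.34, and Unc13a, a vesicle priming factor, by 1.09 ± 0.29. The list median was 0.11.

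Vesicle cargo and membrane proteins showed 7 of 27 genes higher at the unadjusted threshold, and 0 lower (1.69% and 1.04% of all genes), with 0 called after adjustment by limma and a median of 0.16. The groups did not overlap for 8 genes on the higher side and 0 on the lower, where 4.91% and 2.65% of all genes lay apart. The 7 were Syp, Synpr, Syn1, Chga, Chgb, Scg2 and Scg3. The further gene without overlap was Slc18a3, which had no array above the bacterial reference. The 3 with the smallest p were Chga, a granin of dense core vesicles, at 1.63 ± 0.24 (SE), Syn1, which tethers synaptic vesicles, at 1.23 ± 0.23, and Scg3, another granin, at 0.85 ± 0.16. Of 19 other synaptotagmins and C2 domain relatives, 3 were higher and 1 lower at the unadjusted limma threshold, against 1.69% and 1.04% of all genes, 0 were called, and the median was 0.14. Their groups did not overlap for 3 genes on the higher and 2 on the lower side, against 4.91% and 2.65%. Rph3a, a C2 protein of synaptic vesicles, differed by 1.40 ± 0.28, Cadps, which primes dense core vesicles, by 0.86 ± 0.24, and Esyt2, an extended synaptotagmin that tethers the endoplasmic reticulum to the plasma membrane, by -0.43 ± 0.14; the further gene was Cadps2, at 0.60 ± 0.23.

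Of 19 endocytic adaptors, some of which bind synaptotagmin C2 domains, 0 were higher and 0 lower at the unadjusted limma threshold, and 0 were called. Of all genes 1.69% were higher and 1.04% lower at that threshold. The groups did not overlap for 1 adaptor on the higher side (Ap2a2) and 1 on the lower (Synj1), against 4.91% and 2.65% of all genes. Blocking on the replicate number, 1 was higher and 1 lower, where 2.18% of all genes were higher and 1.36% lower. Ston2, the stonin that sorts synaptotagmins during vesicle retrieval, read 8.89, 8.68 and 7.41 in control and 8.002, 6.46 and 7.08 in REST shRNA arrays. It was lower in every number, but control array 3 lay below REST shRNA array 1, and the difference was -1.15 ± 0.51 (SE). Ap2a2, a subunit of the AP-2 adaptor, differed by 0.45 ± 0.21, and Synj1, which uncoats vesicles, by -0.32 ± 0.18.

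**Figure D4:**
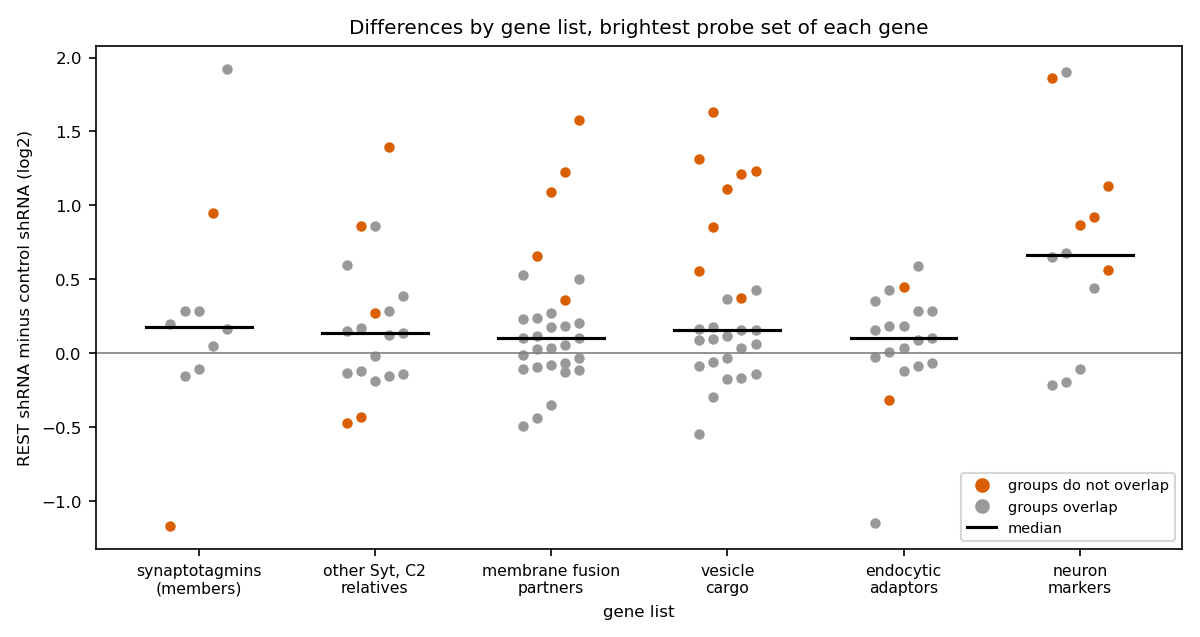
Difference between REST shRNA and control shRNA (y axis, log2) of the brightest probe set of each gene, by gene list (x axis), with the list median as a bar and orange for genes whose groups do not overlap. Of the 10 synaptotagmin genes 2 are orange, Syt6 above 0 and Syt17 below 0, while 8 of 27 vesicle cargo genes are orange and all 8 lie above 0. Slc18a3, 1 of these 8, had a mean below the bacterial controls.

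For the 9 synaptotagmins above the bacterial reference (not Syt2), the 3 genes whose 6 values lay closest were found by Pearson's r over the 6 arrays among 13822 other genes above it. As a description of these 6 arrays only, r ran from 0.977 to 0.999. For Syt4 they were Rnf14, Ankrd27 and Tnfaip8l2, for Syt6 Xkr6, Ccdc120 and Myl4, and for Syt17 D3Ertd751e, Pafah2 and Zdhhc2. Syt11 was matched by Pdxdc1, Gramd1b and Gpr137b-ps, Syt1 by Oard1, Kcna7 and Gm31437, and Syt9 by Bri3, Zfp593 and Ythdf1. The lists for the remaining genes were AI854703, Mylk2 and Igha for Syt5, Dynlt1f, Arhgef39 and Galnt18 for Syt7, and C1qtnf4, Slc35g3 and Cavin3 for Syt13. None of these 27 genes is a fusion partner or cargo gene of the lists above.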

How the data were processed

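Each array has 1 column of log2 signals in the table the authors deposited. How they corrected background, summarised probes and normalized arrays is not given in the sources used here; log2 was inferred from the range, 1.00 to 14.2. The labels' protocols give Trizol extraction and biotin labelling. Sample titles supplied group and replicate number. No pair of arrays was identical (Pearson correlation 0.955 to 0.993).

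After 64 control probe sets were removed, 45037 of 45101 remained. Genes come from the platform annotation (34945 probe sets with 1 gene, 932 with several), and 34741 probe sets had a gene number in a RefSeq table (GRCm38.p6, names only). The highest of 27 unspiked bacterial control probe sets, 3.24, marks background. The test was limma 3.58.1 in R 4.3.3 (lmFit, eBayes, two-sided, group as the only term, 4 residual and 2.90 prior degrees of freedom), with adjustment over all probe sets. Exact permutation tests used scipy 1.17.1. The limma steps were tested on simulated data. Of 156 entries in the gene and marker lists 148 were matched, and each gene is read by its brightest probe set.

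The correlation of same-numbered arrays' deviations from their group means was 0.117, 0.282 and 0.402 for numbers 1, 2 and 3. All exceed 0.1, so the titles' numbers were treated as pairs, although control array 1 deviated more like REST shRNA array 2 (0.231). By rule, array values are given for the brightest probe set of all 10 synaptotagmins, the 3 genes of each partner list with the smallest p are named with their difference, and the 3 genes nearest by r are named for each synaptotagmin above background; other genes named, and the comparison of probe sets within arrays, were picked with their values in view. The members and lists were chosen with earlier results of these data known. Alternatives were array weights, median centring, quantile normalization, an intensity trend, a filter on dim probe sets, leaving out shared-probe designs, 1 probe set or a mean per gene, the replicate block and leaving out arrays. With 3 arrays per group the precision is limited.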

Additional observations from a re-analysis of the deposited data

How the results depend on the processing

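In none of the 17 other fits was a synaptotagmin probe set called; the lowest adjusted limma p of a member was 0.559. Of 448 differences recomputed, 402 kept their direction, and 13 of 28 probe sets kept it throughout, among them both of Syt4 and Syt17 and the brightest of Syt6. At the unadjusted threshold, probe sets lower in REST shRNA numbered 1 with array weights, with 1 probe set per gene or with the replicate block, and those whose groups did not overlap on the lower side numbered 1 with 1 probe set per gene, where 1 probe set of Syt17 is left by construction. Leaving out arrays gave 1 to 6 higher and 0 to 2 lower at the unadjusted threshold, 2 to 13 higher and 2 to 3 lower without overlap (fewer arrays overlap less), and a family median of 0.0090 to 0.31. The count of 6 came without REST shRNA array 2, and that of 1 without REST shRNA array 3 or without both arrays numbered 1. Apart from the replicate block, shares over all probe sets are not given for these alternatives. Their counts can therefore not be set against such shares. The paired analysis with the replicate block changed no adjusted call, and gave 4 higher.

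Directions turned with array weights for Syt2 1440323_at (0.047), Syt7 1460081_at (-0.074), Syt11 1429315_at (0.12) and 1455176_a_at (0.080) and Syt13 1451045_at (-0.17). They turned with arrays centred on their median for Syt6 1449767_x_at (0.021) and Syt11 1429315_at (0.026), and with quantile normalization for Syt13 1451045_at (-0.0015). With arrays left out the ranges that crossed 0 were -0.19 to 1.09, -0.34 to 0.64 and -0.15 to 0.38 for Syt1 1421990_at, 1433884_at and 1438282_at. They were -0.14 to 0.47, -0.17 to 0.10 and -0.13 to 0.094 for Syt6 1420188_at, 1449766_at and 1449767_x_at, and -0.28 to 0.064 and -0.22 to 0.47 for Syt7 1441927_at and 1460081_at. For Syt11 1429314_at, 1429315_at, 1449264_at, 1455176_a_at and 1456464_x_at they were -0.10 to 0.33, -0.17 to 0.22, -0.073 to 0.49, -0.22 to 0.20 and -0.21 to 0.53, and for Syt13 1451045_at -0.11 to 0.26. The cause of these turns was not tested. Signals near the bacterial controls limit what the 8 dim probe sets can show.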

Other observations

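Synaptotagmin genes outside the 10 were read by the brightest probe set of each, chosen for mention after their values were seen. Syt12, a synaptotagmin that does not bind calcium, averaged 3.52 with an SD of 0.14 over the 3 control arrays and 3.79 with an SD of 0.19 over the 3 REST shRNA arrays. The log2 difference was 0.27 ± 0.17 (SE), with an unadjusted limma p of 0.161. The Syt12 groups did not overlap, where those of 4.91% of all genes lie apart on the higher side. Syt14 differed by 0.86 ± 0.47, with 2 of 3 numbers higher. Syt8 and Syt16 differed by -0.02 ± 0.15 and 0.12 ± 0.38, less than their standard errors, and Syt3 and Syt10 had means below the bacterial reference. Rph3al, a Rab effector related to the amino-terminal part of rabphilin, differed by -0.47 ± 0.21 without overlap, on the lower side like Syt17, where the groups of 2.65% of all genes lie apart. None of these passed the adjusted limma threshold.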
